A study of Mus musculus with 18 samples.

Results

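Tripartite motif (TRIM) genes were taken as every row of the deposited table whose GENCODE M21 symbol began with Trim followed by a digit, pseudogenes left out. The annotation held 68 such coding genes, and 38 of them were among the 11164 genes of the table. TRIM proteins carry a RING domain, B-boxes and a coiled coil, and most act as E3 ubiquitin ligases, which pass ubiquitin from an E2 enzyme to a substrate. What follows the coiled coil differs between members: many end in a PRYSPRY domain that binds a target, others in a bromodomain that reads chromatin. In macrophages the family is best known for restricting viruses and for tuning the pathways that lead to type I interferon and NF-kB, and many of its antiviral members are themselves induced by interferon.

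RNA was sequenced from macrophages grown out of mouse bone marrow, with C57BL/6J as the labelled strain of every sample. There were 6 groups, 3 genotypes each with and without lipopolysaccharide (LPS, a ligand of Toll-like receptor 4) at 10 ng/ml for 4 h. The LPS groups were BAFF KO, APRIL KO and wild type (WT) with 2 libraries each, and the unstimulated groups were the same genotypes with 1 library each. A library here is 1 JD number of the labels, the mean of 2 deposited columns that the titles number as separate samples; whether these are repeat runs or separate samples is not stated. BAFF and APRIL are cytokines with shared receptors on lymphocytes, and the series asks about them in preterm birth driven by inflammation; all samples also carry the label of day 16 of gestation. The knockout alleles, and whether libraries came from separate mice or cultures, were not stated in the labels, so a p-value here is set against library-to-library spread that could be purely technical.

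Each library held 5121833 to 6020780 reads in listed genes. Tnfsf13, the APRIL gene, was at the table's floor for a count of 0 (0.233 RPKM, reads per kilobase of gene and per fixed number of sequenced reads) in all 3 APRIL KO libraries, against 12.99 to 52.81 RPKM in the 6 BAFF KO and WT libraries. The BAFF gene was not analysed here. All 10 macrophage markers of a fixed list were in the table, with summed levels of 4875 to 7731 RPKM, and none of 5 T or NK cell markers was. The 3 WT libraries stood apart by 17 skeletal muscle genes, whose summed level was 264 to 393 RPKM in WT, against 25.8 to 65.0 RPKM in the 6 knockout libraries.

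Many members that rose with LPS held a short element near their start sites. A promoter window, 250 bases before to 50 after a start site in RefSeq (build GRCm38.p6), was held for 28 of the 38 listed members in 33 windows. The letters of 3 elements were searched on both strands: the core of the interferon-stimulated response element (ISRE), bound by interferon regulatory factors, as GAAANNGAA; the gamma-activated site (GAS) as TTCNNNGAA; and the kB element, bound by NF-kB, as GGGANTTTC. Stretches with the match in capitals are printed for members that rose, 5′ to 3′ on the strand of the gene, leaving out near copies of those shown.
Trim21 (chr7:102565441-102565489, minus strand): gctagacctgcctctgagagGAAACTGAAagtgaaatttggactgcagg
Trim25 (chr11:88999374-88999422, plus strand): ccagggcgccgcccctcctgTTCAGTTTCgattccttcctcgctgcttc
Trim26 (chr17:36836967-36837015, plus strand): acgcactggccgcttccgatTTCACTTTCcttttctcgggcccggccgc
Trim30a (chr7:104465200-104465248, minus strand): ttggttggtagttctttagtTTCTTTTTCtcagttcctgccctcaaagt
Trim12a (chr7:104315456-104315504, minus strand): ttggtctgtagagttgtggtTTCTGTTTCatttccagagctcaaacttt
Trim34a (chr7:104244448-104244496, plus strand): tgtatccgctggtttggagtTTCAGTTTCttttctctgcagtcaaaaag
Trim34b (chr7:104329240-104329288, plus strand): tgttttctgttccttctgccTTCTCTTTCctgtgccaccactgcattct
Trim30b (chr7:104358620-104358668, minus strand): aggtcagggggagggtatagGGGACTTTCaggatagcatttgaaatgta
The ISRE core was found in 10 of the 13 members that rose with LPS and had a window (Trim5, Trim12a, Trim12c, Trim21, Trim25, Trim26, Trim30a, Trim30d, Trim34a and Trim34b). It was found in 0 of the 9 that fell, 0 of the 2 that were not called and 0 of the 4 that were not tested. Of all 27025 genes with such windows 9.761% held it, and of all 32851 windows 8.56%. These matches are not independent, because the genes are copies of each other: over 49 bases the stretches of Trim30a and Trim30d differed at 0 bases, those of Trim12a and Trim5 at 0 and those of Trim12a and Trim12c at 2. In Trim21 and in Trim26 a further match overlapped the first. The kB letters were in the window of Trim30b alone among the listed members, against 1.111% of all windows, and the GAS letters in those of Trim30c and Trim45, against 8.298% of all windows. A match is a run of letters and was not tested as a binding site.

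The whole window of Trim30c is given because it had the largest rise of the family without holding the ISRE letters, and the capitals mark its GAS match.
Trim30c (chr7:104400729-104401028, minus strand): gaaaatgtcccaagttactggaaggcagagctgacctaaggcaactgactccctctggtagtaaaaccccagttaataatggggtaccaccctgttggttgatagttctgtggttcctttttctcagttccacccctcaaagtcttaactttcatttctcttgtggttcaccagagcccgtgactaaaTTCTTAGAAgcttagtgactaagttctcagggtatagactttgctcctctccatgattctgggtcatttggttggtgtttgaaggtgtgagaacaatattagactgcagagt
Trim21 had the next largest rise on the log2 scale of the fit, although in RPKM Trim30b rose by a larger ratio (10.51 against 9.512). In Trim21 the capitals mark the overlapping pair of ISRE matches, which lie just after the start site.
Trim21 (chr7:102565433-102565732, minus strand): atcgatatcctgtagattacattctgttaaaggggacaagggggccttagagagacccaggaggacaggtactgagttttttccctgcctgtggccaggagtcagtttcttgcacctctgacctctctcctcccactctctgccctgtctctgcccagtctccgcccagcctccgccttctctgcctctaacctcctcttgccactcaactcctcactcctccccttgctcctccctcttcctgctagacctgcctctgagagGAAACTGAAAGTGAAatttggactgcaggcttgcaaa

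**Figure D1:**
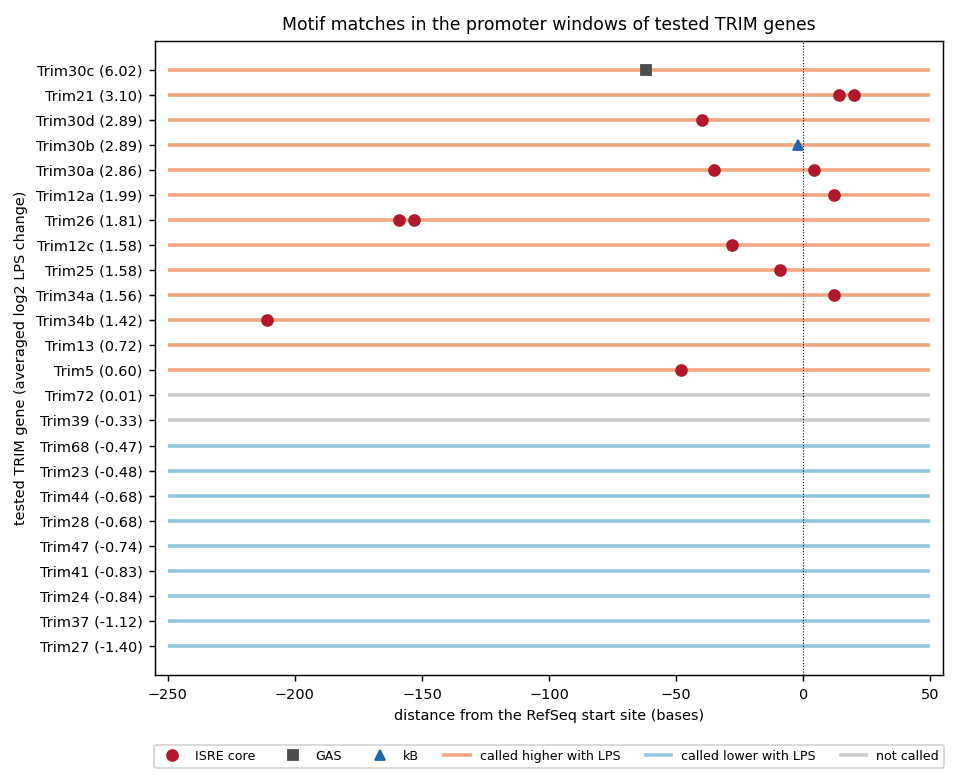
Positions of the matches in the promoter windows of the tested TRIM genes that had one, as distance from the RefSeq start site in bases. Genes run from the largest rise with LPS at the top (log2 change in brackets) to the largest fall; circles are ISRE cores, the square a GAS match and the triangle a kB match, and line colour gives the call with LPS. The 10 genes with a circle are all among those called higher.

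With LPS the family split into rising and falling members of nearly equal number. Of the 33 members tested, 15 were higher with LPS averaged over the 3 genotypes and 16 were lower, while Trim39 and Trim72 were not called (limma on log2(RPKM + 1) of 9934 genes, Benjamini-Hochberg adjusted p below 0.05, 2-sided). Among all genes tested 80.2% were called, 18.1% higher and 62.1% lower. The members' median change was -0.33 on the log2 scale, and that of all genes tested was -0.44. RPKM are shares of each library, so their direction depends on the scaling: after median ratio scaling the median of all genes was -0.02, the calls in the family were 15 higher and 8 lower, and the background was 30.8% higher and 30.3% lower. All 15 rises were called under all 18 alternative fits (other scalings, filters, pseudocounts, columns and libraries), and 7 of the 16 falls were. Of the 15 rises 13, and of the 16 falls 3, were at least 2-fold on the log2(RPKM + 1) scale, which understates changes of low genes. That minimum was a cut on the size of called changes and not a test, and the share of all genes past it was not counted. Trim16, Trim65 and Trim68 reached the filter of 1 RPKM in unstimulated groups alone, where they are highest, so their falls are no independent evidence. Neutrophil markers of a fixed list moved with LPS as well: of 10 tested 9 were lower and none higher (2 higher and 6 lower after median ratio scaling). Their summed level was 2361 and 2740 RPKM in BAFF KO, 1642 and 1684 RPKM in APRIL KO and 1385 and 1742 RPKM in WT with LPS. Unstimulated it was 5827, 2780 and 3105 RPKM in the same order. Their part in the members' changes was not tested. In bulk RNA, fewer cells of a type and less RNA per cell cannot be told apart.

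**Figure D2:**
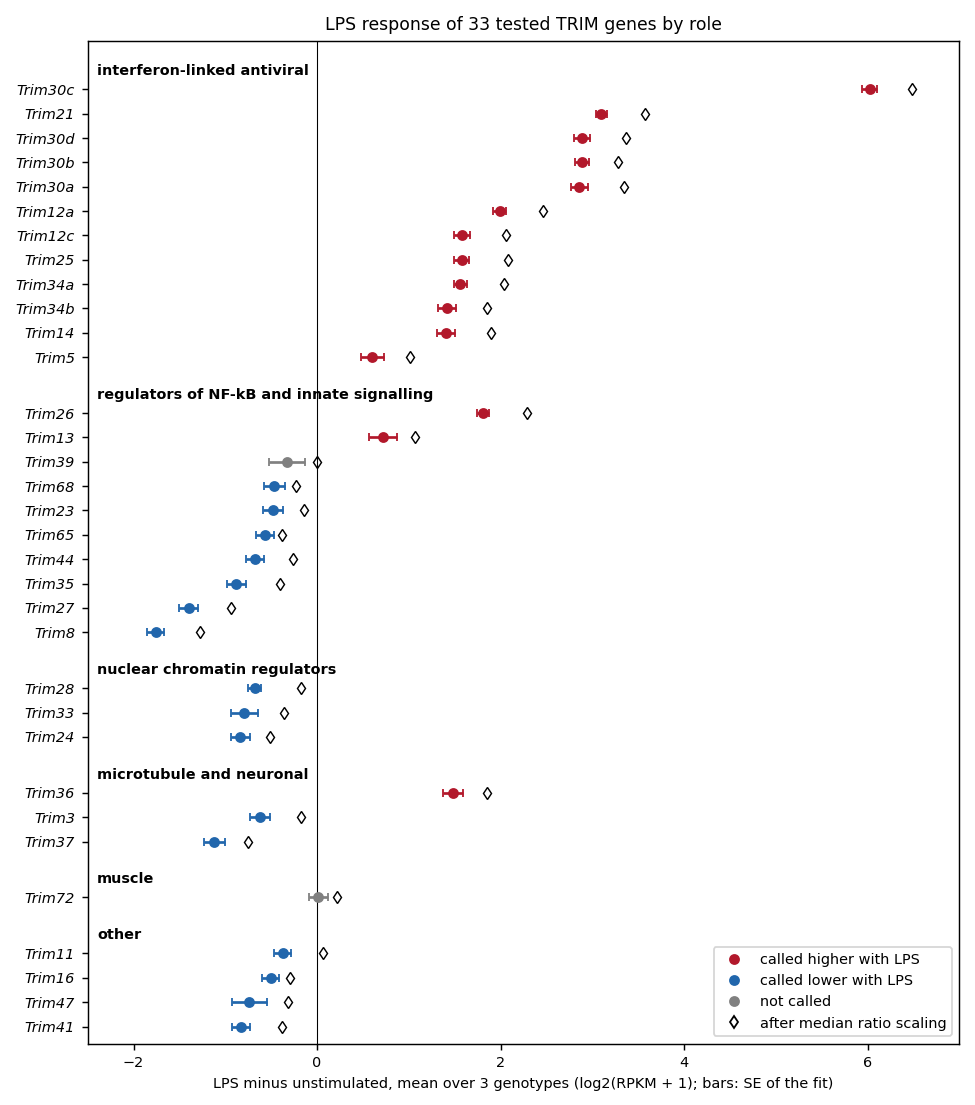
LPS response of the 33 tested TRIM genes, grouped by role, as the difference between LPS and unstimulated libraries on the log2(RPKM + 1) scale averaged over the genotypes. Filled circles are the estimates with their standard errors and open diamonds the estimates after median ratio scaling, which lie higher for every gene; the 12 tested interferon-linked members all lie right of 0, and Trim11 and Trim39 cross 0 after scaling.

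The rise was heaviest among members linked to interferon and to viral restriction. Of 13 listed members in this group 12 were tested, and all 12 were called higher, with a median change of 1.78. Among all genes tested 18.1% were called higher. Members were chosen with earlier results of these data known, and most of these are neighbouring relatives on chromosome 7. The count is therefore a description and no independent evidence. The remaining listed one, Trim56, which acts in sensing of foreign nucleic acid, was below the filter of a mean of 1 RPKM in at least 1 group. Their summed level was 946 and 1023 RPKM in BAFF KO, 1098 and 996.9 RPKM in APRIL KO and 1014 and 873 RPKM in WT with LPS. Without stimulation the sums were 103.7 RPKM in BAFF KO, 135.7 RPKM in APRIL KO and 128.3 RPKM in WT.

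Trim30c, one of the rodent Trim30 genes, changed most and became the most abundant TRIM transcript per length. It had 419 and 458 RPKM in BAFF KO, 526 and 450 RPKM in APRIL KO and 474 and 402 RPKM in WT with LPS, against 5.02, 7.001 and 6.06 RPKM in unstimulated BAFF KO, APRIL KO and WT. Every LPS library lay far above every unstimulated one, and the genotypes overlapped. The mean was 455 ± 43.6 RPKM with LPS (SD, n = 6) and 6.03 ± 0.989 RPKM without (SD, n = 3), a ratio of 75.5. On the log2 scale the change was 6.02 ± 0.08 (SE; limma adjusted p = 1.1e-09). The count behind it was 3166 to 4590 reads with LPS and 43 to 58 reads without, and no stretch of 85 bases, the read length, was shared with another TRIM transcript.

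The other 3 members of the Trim30 subfamily rose by nearly equal amounts on the log2 scale of the fit, Trim30b by 2.89. That scale understates changes of low genes. In RPKM the ratio of the LPS mean to the unstimulated mean was 10.51 for Trim30b, 7.696 for Trim30a and 8.033 for Trim30d. Trim30a, which in mice restrains Toll-like receptor signalling by removing the TAK1 adaptors TAB2 and TAB3, had 104 and 117 RPKM in BAFF KO, 119 and 115 RPKM in APRIL KO and 104 and 79.2 RPKM in WT with LPS, against 11.3, 15.8 and 14.3 RPKM in the same genotypes unstimulated. Its log2 change was 2.86 ± 0.09 (SE; limma adjusted p = 1.1e-07). Trim30d had 73.9 and 79.4 RPKM in BAFF KO, 76.5 and 87.5 RPKM in APRIL KO and 74.7 and 60.4 RPKM in WT with LPS, against 8.02, 11.7 and 8.47 RPKM unstimulated. Its change was 2.89 ± 0.09 (SE; limma adjusted p = 7.4e-08). Neither gene's LPS libraries overlapped the unstimulated ones, and the lower of the WT libraries was the lowest LPS library for both. Trim30a and Trim30d share 4.7% and 5.0% of their 85-base stretches, so a small part of their reads could have been counted for either.

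Trim21, the cytosolic Fc receptor that directs antibody-coated viruses to the proteasome, had 85.2 and 88.9 RPKM in BAFF KO, 73.8 and 69.4 RPKM in APRIL KO and 75.3 and 73.3 RPKM in WT with LPS, against 8.25, 8.77 and 7.48 RPKM in unstimulated BAFF KO, APRIL KO and WT. The log2 change was 3.10 ± 0.06 (SE; limma adjusted p = 6.2e-09). The LPS libraries of BAFF KO were the highest, but the difference from WT, 0.23, was not called. Trim25, which ubiquitinates the RNA sensor RIG-I and is itself a ligase for the ubiquitin-like ISG15, had 85.9 and 97.2 RPKM in BAFF KO, 105 and 98.6 RPKM in APRIL KO and 109 and 89.7 RPKM in WT with LPS, against 24.2, 35.1 and 38.5 RPKM unstimulated. Its change was smaller, 1.58 ± 0.08 (SE; limma adjusted p = 1.6e-06), from the highest unstimulated level of the group. Trim14, an adaptor without a RING domain that joins the antiviral signalling complex at mitochondria, averaged 37.4 ± 4.41 RPKM with LPS (SD, n = 6) and 13.4 ± 1.24 RPKM without (SD, n = 3), a change of 1.41.

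The mouse relatives of the primate retrovirus restriction factor TRIM5α rose less evenly. Trim12a had 36.0 and 36.2 RPKM in BAFF KO, 31.4 and 32.9 RPKM in APRIL KO and 35.7 and 32.4 RPKM in WT with LPS, against 8.19, 7.68 and 7.58 RPKM unstimulated (log2 change 1.99 ± 0.07, SE; limma adjusted p = 1.6e-07). Trim12c had 39.4 and 42.6 RPKM in BAFF KO, 44.3 and 36.8 RPKM in APRIL KO and 34.1 and 29.1 RPKM in WT with LPS, against 8.91, 15.4 and 12.1 RPKM unstimulated (1.58 ± 0.09, SE; limma adjusted p = 2.5e-06). Trim5 averaged 5.71 ± 1.09 RPKM with LPS and 3.41 ± 0.727 RPKM without, a change of 0.60, and was the only riser of this group whose lowest LPS library (4.07 RPKM, WT) lay under an unstimulated one (4.22 RPKM, APRIL KO). Trim34a and Trim34b, counterparts of the interferon-responsive human TRIM34, changed by 1.56 and 1.42. These genes are near copies: 37.3% of the 85-base stretches of Trim34b and 25.8% of those of Trim34a occur in the other, and 13.5% of those of Trim5 and 11.9% of those of Trim12c in other TRIM transcripts, so how reads were split among them is uncertain.

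**Figure D3:**
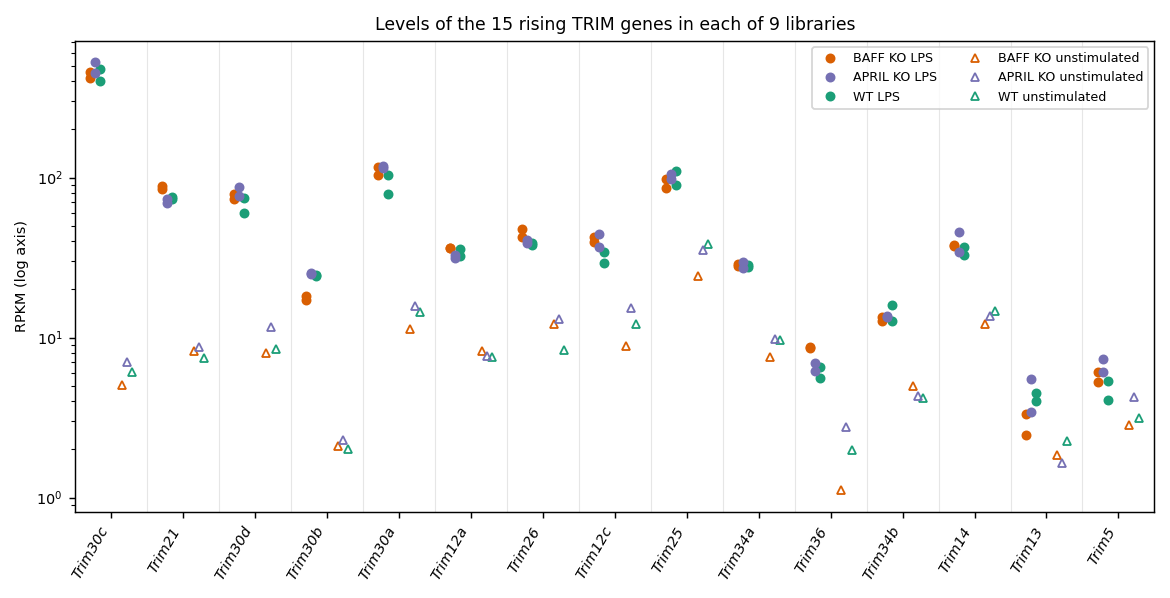
RPKM (log axis) of the 15 members called higher with LPS in each of the 9 libraries, ordered by the size of the change. Filled circles are LPS libraries and open triangles unstimulated ones, coloured by genotype; Trim30c separates most, from 402 to 526 RPKM with LPS against 5.02 to 7.001 RPKM unstimulated, and only Trim5 has an unstimulated library above an LPS library.

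Of the 15 rising members, 10 sit together on chromosome 7. Between Trim21 and Trim30d, chr7:102557921-104507849 in GRCm38, the annotation placed 12 TRIM genes over 1950 kb, of which Trim6 was not among the genes analysed here. Of the other 11, 10 rose and Trim68 fell by 0.47, a fall that was not called after median ratio scaling (-0.24; limma adjusted p = 0.13). The interval also held 101 other coding genes, 89 of them olfactory receptors, and 2 of the 101 were in the table: the β-globin genes Hbb-bt and Hbb-bs, each changed by 0.09 and not called.

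**Figure D4:**
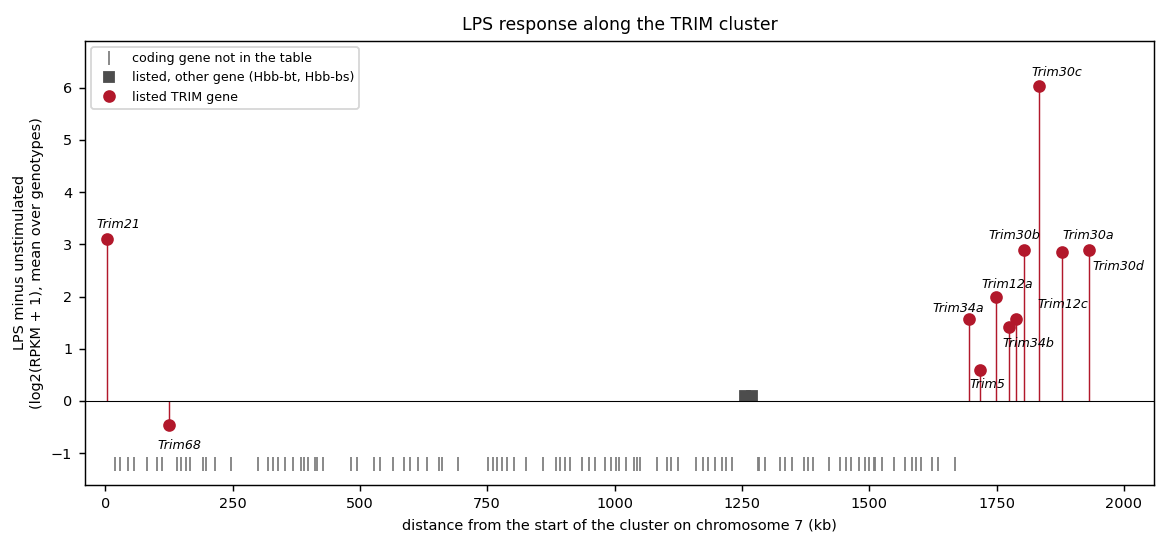
LPS response on the log2(RPKM + 1) scale, averaged over genotypes, along the TRIM cluster, by distance in kb from its start on chromosome 7. Circles are listed TRIM genes, squares the 2 β-globin genes and ticks coding genes not in the table; Trim21 and Trim68 lie at one end and 9 TRIM genes at the other, with Trim30c the highest at 6.02.

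Regulators of NF-kB and innate signalling moved in both directions. Of 11 listed, 10 were tested, 2 were called higher and 7 lower, and after median ratio scaling 2 were higher and 4 lower. Among all genes tested 18.1% were higher and 62.1% lower, and 30.8% and 30.3% after scaling, so these counts lie near the background. Trim26, reported to act on IRF3 and on the kinase TBK1, had 48.0 and 42.7 RPKM in BAFF KO, 39.0 and 41.0 RPKM in APRIL KO and 38.0 and 38.9 RPKM in WT with LPS, against 12.2, 13.1 and 8.36 RPKM in the same genotypes unstimulated. It rose by 1.81 ± 0.07 (SE; limma adjusted p = 2.7e-07). Trim13, a ligase anchored in the endoplasmic reticulum, averaged 3.87 ± 1.05 RPKM with LPS (SD, n = 6) and 1.92 ± 0.315 RPKM without (SD, n = 3), a change of 0.72.

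Trim8 fell most of all members. It is a ligase reported to activate the kinase TAK1 downstream of tumour necrosis factor and interleukin-1, and it had 4.13 and 3.50 RPKM in BAFF KO, 6.52 and 7.21 RPKM in APRIL KO and 6.06 and 6.31 RPKM in WT with LPS, against 19.8, 24.3 and 18.9 RPKM unstimulated. No LPS library reached the level of any unstimulated one, and the mean was 3.73-fold lower with LPS. The change was -1.76 ± 0.09 (SE; limma adjusted p = 1.7e-06), and -1.28 after median ratio scaling. Trim27, which binds kinases of the IKK family, averaged 4.13 ± 0.471 RPKM with LPS (SD, n = 6) and 12.5 ± 0.540 RPKM without (SD, n = 3), a fall of 1.40 on the log2 scale and of 0.94 after median ratio scaling. Trim35, first described in haematopoietic lineage switching, fell by 0.88, and Trim65, which ubiquitinates the RNA sensor MDA5, by 0.57. Both falls were called under all 18 alternative fits but were less than 2-fold on this scale, and Trim65 had 28 reads or fewer per library. The falls of Trim44, Trim23 and Trim68 (0.68, 0.48 and 0.47) were not called after median ratio scaling, and without the unstimulated WT library Trim23 changed by -0.31 and was not called (limma adjusted p = 0.068). Trim39, at 1.53 ± 0.506 RPKM with LPS and 2.13 ± 0.365 RPKM without, changed by -0.33 ± 0.20 (SE; limma adjusted p = 0.15).

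The 3 listed chromatin regulators of the family, all with a PHD finger and a bromodomain, were called lower, but 1 of the 3 after median ratio scaling. Among all genes tested 62.1% were called lower, and 30.3% after scaling. Trim28, also called KAP1, is the corepressor recruited by KRAB zinc finger proteins, and it was the most abundant member in unstimulated cells. It averaged 35.4 ± 1.78 RPKM with LPS (SD, n = 6) and 57.3 ± 2.31 RPKM without (SD, n = 3), and every LPS library (33.1 to 37.1 RPKM) was below every unstimulated one (54.8 to 59.2 RPKM). Its change of -0.68 ± 0.07 (SE; limma adjusted p = 5.3e-05) was -0.17 after median ratio scaling and then not called (adjusted p = 0.072). Trim33, which acts on SMAD signalling, changed by -0.79, and by -0.37 after scaling, where it was not called (adjusted p = 0.055). Trim24, a coregulator of nuclear receptors, changed by -0.84 and kept its call after scaling at -0.51. The reads on Trim28 can include those of Zbtb45, which lies over it on the other strand, since it is unclear whether the libraries kept strand.

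Among the members named for microtubules or neurons, 1 rose and 2 fell. Trim36, a microtubule-binding ligase known from mouse sperm, averaged 7.11 ± 1.31 RPKM with LPS (SD, n = 6) and 1.95 ± 0.828 RPKM without (SD, n = 3), a change of 1.48. Trim37, found at peroxisomes and centrosomes, averaged 1.20 ± 0.256 RPKM with LPS and 3.82 ± 0.937 RPKM without, a change of -1.12. Trim3, a brain-enriched ligase with an NHL domain, changed by -0.62, and by -0.17 after median ratio scaling, where it was not called. The 4 tested members of the remaining group all had a lower level with LPS as deposited: Trim41 by 0.83, Trim47 by 0.74, Trim16 by 0.51 and Trim11 by 0.37. After median ratio scaling the calls for Trim41 and Trim16 held (-0.38 and -0.30), although Trim16 reached the filter in the unstimulated WT library alone and is not tested without it; that for Trim47 did not (-0.31), and Trim11 turned to 0.06 and was not called. Trim11 had the smallest spread for its level with LPS, at 4.71 ± 0.0476 RPKM in 6 libraries, against 6.44 ± 1.03 RPKM in the 3 unstimulated ones. It had 52 to 66 reads per LPS library, where counting error exceeds that spread, so the spread does not show steady expression. Without the unstimulated WT library the fall of Trim11 was 0.26 and not called (limma adjusted p = 0.069). Trim41 overlaps Rack1, a highly expressed gene on the other strand, so its reads are uncertain.

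Below the filter were 5 listed members, Trim43c, Trim45, Trim56, Trim59 and Trim62. Trim62 had the lowest mean level of the family, with 0.0937 and 0.0757 RPKM in BAFF KO, 0.202 and 0.146 RPKM in APRIL KO and 0.155 and 0.0757 RPKM in WT with LPS, against 0.237, 0.212 and 0.387 RPKM unstimulated. It rested on 19 reads in all libraries together, and the value of 0.0757 RPKM stands for a count of 0, since 1 read had been added to every count before the RPKM were made.

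By level, the order of the family changed with LPS. Unstimulated, Trim28 was first, then Trim25 (32.6 ± 7.48 RPKM, SD, n = 3), Trim8 (20.99 ± 2.90 RPKM), Trim35 (15.5 ± 3.91 RPKM) and Trim30a (13.8 ± 2.30 RPKM). Trim8 and Trim35 overlapped in mean ± SD, as did Trim35 and Trim30a. In the unstimulated WT library Trim35 had 19.01 RPKM and Trim8 18.86 RPKM. With LPS, Trim30c was first, followed by Trim30a (106 ± 14.7 RPKM, SD, n = 6), Trim25 (97.6 ± 8.91 RPKM), Trim21 (77.7 ± 7.63 RPKM) and Trim30d (75.4 ± 8.85 RPKM), where Trim30a and Trim25, and Trim21 and Trim30d, lay within each other's spread. Trim28 came ninth and Trim8 seventeenth.

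The LPS response was then read in each genotype, to ask whether BAFF or APRIL is needed for it. In BAFF KO 14 members were called higher and 10 lower (of all genes 59.8%, 16.0% higher and 43.8% lower). In APRIL KO 14 were higher and 14 lower (62.1%, 14.4% higher and 47.8% lower), and in WT also 14 and 14 (60.3%, 13.7% higher and 46.7% lower). The same 13 members were called higher in all 3 genotypes, and the same 8 were called lower in all 3. The share of all genes called in all 3 was not counted. Of the 15 rises, Trim13 was not called in BAFF KO, Trim5 was not in APRIL KO and neither was in WT, where Trim72 was called instead. Trim30c changed by 6.19 in BAFF KO, 5.93 in APRIL KO and 5.96 in WT, and Trim21 by 3.25, 2.89 and 3.15 in the same order.

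The difference of LPS responses between a knockout and WT was called for 0 of 33 members, both for BAFF KO (background 0.443%, with 0.221% higher and 0.221% lower) and for APRIL KO (background 0.00%), by limma. At an unadjusted p under 0.05 there were 10 members for BAFF KO and 3 for APRIL KO. The share of all genes at that unadjusted level was not counted, so these counts cannot be set against the backgrounds above. The smallest p was that of Trim36 in BAFF KO, whose response was 2.20 in BAFF KO against 1.24 in WT, a difference of 0.96 ± 0.26 (SE; limma adjusted p = 0.11). Trim36 had 8.76 and 8.65 RPKM in BAFF KO and 5.58 and 6.55 RPKM in WT with LPS, against 1.11 RPKM in BAFF KO and 1.98 RPKM in WT unstimulated. Trim35 fell by 0.58 in BAFF KO, by 0.69 in APRIL KO and by 1.37 in WT, differences of 0.80 and 0.68 from WT that did not pass (limma adjusted p = 0.13 and 1.0). These comparisons share the WT libraries and rest on 1 unstimulated library per genotype, and a p that misses the threshold does not show that the responses were alike.

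With LPS, 3 members were lower in BAFF KO than in WT and none was higher, where 8.34% of all genes were called, 4.35% lower and 3.99% higher. Against APRIL KO, 2 members were lower in BAFF KO and none was higher (background 5.54%, with 3.06% lower and 2.48% higher). Trim8 was lower in BAFF KO than in both: its 4.13 and 3.50 RPKM lay under all APRIL KO and WT libraries with LPS, 6.06 to 7.21 RPKM. The change was -0.58 ± 0.13 against WT (SE; limma adjusted p = 0.037) and -0.71 ± 0.13 against APRIL KO (limma adjusted p = 0.022). Its unstimulated level in BAFF KO, 19.8 RPKM, lay between those of APRIL KO (24.3 RPKM) and WT (18.9 RPKM). Trim30b showed the same order among the LPS libraries. It had 18.1 and 17.3 RPKM in BAFF KO, 25.2 and 25.0 RPKM in APRIL KO and 24.3 and 24.6 RPKM in WT with LPS, against 2.09, 2.31 and 2.00 RPKM unstimulated. The BAFF KO libraries were apart from all others with LPS, while the unstimulated ones were close to each other. The difference was -0.45 ± 0.11 from WT (SE; limma adjusted p = 0.049) and -0.48 ± 0.11 from APRIL KO (limma adjusted p = 0.049), beside a rise with LPS of 2.89 ± 0.08 averaged over genotypes (limma adjusted p = 3.7e-08). Both adjusted p-values lie at the threshold: without any 1 of the 6 LPS libraries the call against WT was lost, with a difference of -0.42 to -0.48, and likewise that of Trim8, with -0.49 to -0.67. Against APRIL KO, Trim30b was lost without any 1 of these libraries too, and Trim8 without either BAFF KO or either APRIL KO library (-0.61 to -0.80). The other Trim30 genes did not share the difference: from WT it was 0.28 for Trim30a, 0.00 for Trim30c and 0.19 for Trim30d in BAFF KO, none of them called.

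Markers of cell types moved with the same comparison. In BAFF KO against WT with LPS, 7 of 10 tested neutrophil genes were higher and none lower, with a summed level of 2361 and 2740 RPKM in BAFF KO and 1385 to 1742 RPKM in WT for the 11 listed of 12. Of the 10 macrophage genes 2 were higher, Mertk at 1.80 and Marco at 0.95 on the log2 scale, and 2 were lower, Fcgr1 at -0.91 and Cd14 at -0.90. Of 4 tested B cell genes 1 was lower, Cd79a at -1.10. Against APRIL KO, 6 neutrophil genes were higher and 1 lower, 1 macrophage gene was higher and 3 lower, and 2 B cell genes were lower in BAFF KO. The summed B cell level was 11.2 and 16.8 RPKM in BAFF KO, 26.0 and 29.4 RPKM in APRIL KO and 23.2 and 26.5 RPKM in WT with LPS. The part of these markers in the levels of Trim8 and Trim30b was not tested.

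Trim72, also called MG53, seals membranes of striated muscle and is not known as a macrophage gene. It had 0.294 and 0.219 RPKM in BAFF KO, 0.176 and 0.279 RPKM in APRIL KO and 2.26 and 2.77 RPKM in WT with LPS, against 0.461, 0.468 and 1.44 RPKM unstimulated. All WT libraries were above all knockout libraries, and Trim72 reached the filter of 1 RPKM in the WT groups alone, so it was tested only because it is high there and its calls are a description. Its difference from WT with LPS was -1.48 ± 0.15 in BAFF KO (SE; limma adjusted p = 0.0019) and -1.51 ± 0.15 in APRIL KO (limma adjusted p = 0.015), the single member called there, where 0.211% of all genes were called, 0.201% lower and 0.0101% higher. By reads it had 5 in the BAFF KO and 4 in the APRIL KO libraries with LPS, against 60 in WT, ratios of 0.0771 (95% exact interval 0.0242 to 0.190) and 0.0612 (0.0162 to 0.165) per read sequenced; the intervals cover counting error only.

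Skeletal muscle genes moved with Trim72. Of 20 on a fixed list 17 were in the table and 14 were tested, 13 of them lower in BAFF KO and 7 lower in APRIL KO than in WT with LPS. Their summed level was 43.7 and 56.8 RPKM in BAFF KO, 29.3 and 65.0 RPKM in APRIL KO and 264 and 393 RPKM in WT with LPS. Without stimulation it was 25.8 RPKM in BAFF KO, 41.2 RPKM in APRIL KO and 264 RPKM in WT. The part of muscle RNA in the level of Trim72 was not tested. The call in APRIL KO was lost without either WT library (limma adjusted p = 0.11 and 0.057), either BAFF KO library or the first APRIL KO library with LPS, at -1.41 to -1.62.

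**Figure D5:**
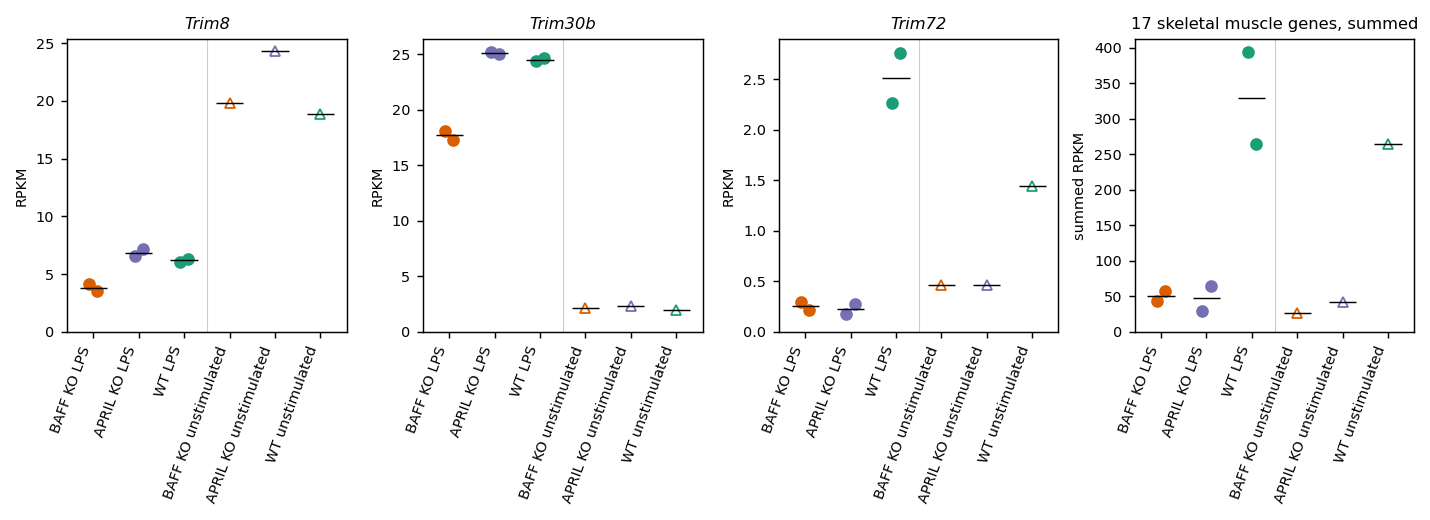
RPKM of Trim8, Trim30b and Trim72, and the summed RPKM of 17 skeletal muscle genes, in every library of the 6 groups; circles are LPS libraries, triangles unstimulated ones and bars group means. Trim8 and Trim30b are lowest in the BAFF KO libraries with LPS, and Trim72 and the muscle sum are highest in the 3 WT libraries.

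The unstimulated genotypes, 1 library each, were compared by size, and no test was made. On the log2(RPKM + 1) scale 0 of 33 members differed from WT by 2-fold with both columns apart, in BAFF KO (background 1.81%) or in APRIL KO (background 1.31%). Differences ran from -0.74 to 0.63 in BAFF KO, with a median of -0.20 beside -0.07 for all genes, and from -0.73 to 0.59 in APRIL KO, with a median of 0.13 beside 0.02. In RPKM itself, where low genes are not damped, 4 tested members were past 2-fold in BAFF KO. Trim72 had 0.461 RPKM in BAFF KO against 1.44 RPKM in WT, Trim65 0.514 against 1.13 RPKM, Trim23 1.49 against 3.08 RPKM and Trim68 1.70 against 0.744 RPKM. In APRIL KO Trim72 alone was, at 0.468 RPKM.

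Partners and relatives of the family were read from fixed lists, with the log2 LPS response averaged over genotypes. Among all genes tested 18.1% were called higher and 62.1% lower in this response, and 30.8% and 30.3% after median ratio scaling. Of 6 TRIM proteins with other names 3 were tested and all 3 rose, led by Pml, which builds nuclear bodies, at 2.502 and Mefv, which encodes pyrin, at 1.71. Mid1, a microtubule-binding ligase, was lower in BAFF KO than in WT with LPS, at -1.58 ± 0.20 (SE; limma adjusted p = 0.0043). Of 12 tested genes of cytosolic nucleic acid sensing, the pathway that TRIM25, TRIM14 and TRIM65 serve, 9 rose and 2 fell (median 1.48; 10 and 1 after median ratio scaling). Ifih1, the gene of the RNA sensor MDA5, changed by 4.51 and Irf7 by 3.39, while Mavs, the mitochondrial adaptor, changed by -1.11 and Irf3 by -0.75. Of 14 genes of interferon signalling and ISG15 conjugation 13 rose and none fell (median 1.71), led by Usp18, which removes ISG15, at 4.04 and Herc6, its mouse ligase, at 3.77.

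The remaining lists were mixed, and their counts of falls depended on the scaling. So did the background, with 62.1% of all genes tested lower, and 30.3% after median ratio scaling. Among 14 adaptors of TAK1 and NF-kB signalling 4 rose and 6 fell (median -0.28; 5 and 3 after median ratio scaling). The Toll-like receptor adaptor Myd88 changed by 2.02 and Traf2 by 1.36, against -1.12 for the kinase Irak4 and -1.10 for the TAK1 partner Tab1. Of 15 ubiquitin E1 and E2 enzymes 7 rose and 2 fell (median -0.02; 11 and 0 after scaling). The E2 enzymes Ube2e1 and Ube2e2 changed by 1.01 and 0.69, and Ube2g2 and Ube2e3 by -0.73 and -0.31. In the complex that silences chromatin with TRIM28, 2 of 14 rose and 11 fell (median -0.68; 4 and 7 after scaling). The DNA methyltransferase Dnmt1 changed by -2.58 and the heterochromatin protein Cbx3 by -1.63, while the deacetylase Hdac1 changed by 0.54.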

How the data were processed

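Gene expression was measured by RNA sequencing in 9 libraries of mouse macrophages. The submitters' processing notes name the aligner STAR and the build mm10; reads were single reads of 85 bp, per the labels. The labels name a directional and a TruSeq kit, so whether strand was kept is unclear; the counting tool, annotation and gene filter are not stated there. The authors deposited RPKM for 11164 genes in 18 columns, and 99.9975% of the values came out as whole reads, within 0.01 reads, once 1 read added to each count was allowed for.

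The 2 columns sharing a library number were averaged, and genes were kept whose mean reached 1 RPKM in any of 6 groups (9934). Values on the log2(RPKM + 1) scale, which understates changes of low genes, entered one model in limma (version 3.58.1, R 4.3.3; 6 group means, 3 residual degrees of freedom, trend, 2-sided, Benjamini-Hochberg over all genes) in 9 comparisons; groups of 1 library are assumed to vary like the others. The code of the fit was run on simulated data in which every gene had the same spread and few genes changed. These data differ in both, so that run does not bear on how reliable the calls are. Tables and figures used Python 3.11.15, pandas 2.3.3, numpy 2.4.6 and matplotlib 3.10.9.

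Values in every library are given for the 10 members with the largest called LPS change, members called between genotypes, those with the highest and lowest mean and muscle members; other genes come from fixed lists, up to 2 rises and 2 falls each. A further list gene that met this rule is not reported here. Members and lists were chosen with earlier results of these data known. Alternatives were pseudocount, filter, scaling, columns, the replicate block, a 2-fold minimum, leaving out each library and, chosen after seeing the data, leaving out the 3 WT libraries. Listed genes had mostly several exons: of coding genes with 1 to 2 exons 9.20% were listed.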

Additional observations from a re-analysis of the deposited data

Results flagged for a closer look

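Trim72 was flagged because its LPS libraries moved in opposite directions from the unstimulated library in different genotypes: lower in both libraries of BAFF KO and of APRIL KO, higher in both of WT. The LPS response in BAFF KO minus that in WT was -0.739 on the log2 scale, and in APRIL KO minus WT it was -0.780. By the test of the difference itself neither was called (limma adjusted p = 0.16 and 1.0). The gene had 1 to 5 reads in each knockout library and 22 to 33 in each WT library, and the muscle genes that move with it are given above; their part was not tested. No group had enough libraries for a check of single libraries that lie apart.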

How the results depend on the processing

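Under 18 alternative fits the 15 averaged rises kept their call, a 2-fold minimum left 13 of them (without Trim5 and Trim13), and the falls depended on the scaling. The 16 averaged falls became 8 with median ratio scaling, 9 with quantile normalization and 3 at 2-fold or more; in the same order the counts were 6, 5 and 5 in WT (of 14), 2, 3 and 2 in BAFF KO (of 10) and 4, 5 and 4 in APRIL KO (of 14), and BAFF KO had 4 with the lower index column alone. Trim11 turned to 0.064 and 0.069 under the 2 scalings, and the rise of Trim72 in WT to -0.084 with the higher index column alone. The 3 members called in BAFF KO against WT became 1 without the filter, 8 with 18 columns as separate samples, 0 and 1 with the lower and the higher index column alone and 1 at 2-fold or more, and 1 to 3 when each library was left out. In APRIL KO against WT the count of 1 became 4, 0 and 0 with separate, lower and higher columns, and 0 to 1 with a library left out. In BAFF KO against APRIL KO the count of 2 became 1 with a pseudocount of 0.1, without the filter, with quantile normalization, with the higher column and without the 3 WT libraries, 4 with separate columns, 0 with the lower column and at 2-fold, and 0 to 2 with a library left out. Differences of LPS responses between BAFF KO and WT gave 9 calls with separate columns, where 1454 of all 9934 genes were called higher and 739 lower. That setting counts the 2 columns of a library as 2 samples, and whether they are is not stated in the labels. With it, 1444 of all genes were higher and 1262 lower in BAFF KO against WT. For APRIL KO against WT these were 757 and 604, and for BAFF KO against APRIL KO 910 and 914. The cause of these shifts was not tested, apart from what each setting does by construction.

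Whether replicate numbers pair libraries could not be decided, because each genotype gives only 1 difference between its 2 LPS libraries. Across genes these differences correlated at -0.18 between BAFF KO and WT, -0.10 between APRIL KO and WT and 0.12 between BAFF KO and APRIL KO. With the replicate block, 1 member was called in BAFF KO against WT and 1 in BAFF KO against APRIL KO, and 107 of 117 member calls held in all. With 2 libraries per LPS group and 1 per unstimulated group, small differences between genotypes could not be resolved, and members under about 1 RPKM rest on few reads.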
